A study of Sus scrofa with 11 samples.

Results

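Genes that encode the enzymes loading amino acids onto tRNAs and the factors that start and extend protein chains were followed in pig heart slices over 10 days of culture. They were chosen by symbol. Genes were taken whose symbol begins with EIF or EEF and a digit, or is an aminoacyl-tRNA synthetase name of 1 amino acid letter and ARS or ARS2, or EPRS. As listed, 51 of the 16319 genes of the table matched. The table of names used here writes cytosolic synthetases with a final 1 (AARS1, EPRS1), and 16 of them were counted in, since RefSeq gives all 16 without it. The resulting 67 genes are 16 cytosolic and 13 mitochondrial synthetases, 34 initiation factor genes and 4 elongation factor genes. All 67 passed the filter of a mean of at least 1 FPKM (fragments per kilobase of gene, scaled to the reads of the library).

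Each synthetase joins an amino acid to its tRNAs. Mitochondria use their own synthetases, which mostly come from separate nuclear genes whose symbols end in 2, to translate the few proteins of the mitochondrial genome, all of them part of oxidative phosphorylation. Initiation factors bring the initiator tRNA and the capped mRNA to the small ribosomal subunit, and elongation factors deliver aminoacyl-tRNA and move the ribosome along. Kinases that phosphorylate the alpha subunit of eIF2 lower initiation overall and raise translation of ATF4, a transcription factor that in mammals drives amino acid synthesis and several cytosolic synthetase genes. Genes that carry an EIF or EEF symbol also include kinases and inhibitors of translation, which are described with the factor they act on.

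RNA was sequenced from 11 libraries of wild-type Yorkshire pig hearts at an age of 3 months. Heart slices on day 0 gave 3 libraries, and slices kept in stimulated culture gave 2 libraries on day 2, 3 on day 6 and 3 on day 10. The labels name neither the kind of stimulation nor an unstimulated group, so time, culture and stimulation cannot be told apart. They also do not say whether replicates came from separate animals, so p-values measure the spread between these samples only.

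The values stood for 11695060 to 16773577 reads per library. Day 0 replicate 2 and day 2 replicate 1 stood apart, with 4536 and 4017 genes at 0 against 1310 to 2331 in the other libraries. An adjusted p under 0.05 in limma was reached by 1124 of 12625 tested genes on day 2 against day 0 (8.9%, 727 higher and 397 lower) and by 1428 on day 6 (11.3%, 1206 and 222). It was reached by 2295 on day 10 (18.2%, 1508 and 787), and by 619 between day 10 and day 6 (4.9%, 241 and 378). The median log2 fold change of all genes was 0.51, 0.88, 0.51 and -0.43 in these comparisons, and median ratio scaling took it to 0.00, 0.12, 0.07 and -0.08. With that scaling the split of calls was 337 higher and 816 lower on day 2, 270 and 596 on day 6, 912 and 1245 on day 10, and 303 and 283 between day 10 and day 6. Directions of groups of genes are therefore set beside the median of all genes below. The comparisons with day 0 share the same 3 control libraries and are not independent of each other.

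Summed cardiomyocyte markers (8 of 15 listed genes were in the table) ranged from 72833 to 159112 FPKM on day 0, 2420 to 15899 on day 2, 13044 to 29217 on day 6 and 22.2 to 144 on day 10. Fibroblast markers (8 of 10) ranged from 330 to 1944, 408 to 479, 321 to 617 and 2002 to 9665 FPKM, and smooth muscle and pericyte markers (7 of 8) from 295 to 459, 164 to 463, 99.5 to 205 and 2289 to 3147 FPKM. Endothelial markers (5 of 9) were at 46.5 to 525, 507 to 2079, 837 to 2021 and 258 to 946 FPKM, and cell division genes (7 of 10) at 5.30 to 16.7, 21.8 to 108, 25.5 to 38.4 and 23.4 to 229 FPKM. Macrophage markers (5 of 10) were at 177 to 648, 78.2 to 522, 118 to 278 and 14.7 to 517 FPKM, and lymphocyte markers (5 of 9) at 10.9 to 25.3, 4.17 to 4.34, 8.61 to 15.4 and 0.558 to 3.54 FPKM, with 1 lymphocyte gene at 0 in every day 10 library. The part of these shifts in the results on translation genes was not tested. Fewer cells of a type and less RNA per cell cannot be told apart in these bulk samples.

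Cytosolic synthetase genes that changed all rose. Of 16 genes, 7 rose on day 2, 9 on day 6 and 9 on day 10, while 5.76%, 9.55% and 11.9% of all genes rose in these comparisons. None fell, while 3.14%, 1.76% and 6.23% of all genes fell. Their median log2 fold changes were 2.21, 2.31 and 2.07 against 0.51, 0.88 and 0.51 over all genes. At each time 15 of 16 lay above the median of all genes, with the lysine enzyme gene KARS1 as the exception. Between day 6 and day 10, 0 of 16 passed in limma, 0 had an unadjusted p under 0.05 and 0 passed with limma voom. Of all genes 1.91% rose and 2.99% fell in that comparison. The median of the class was -0.23 beside -0.43 over all genes.

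**Figure D1:**
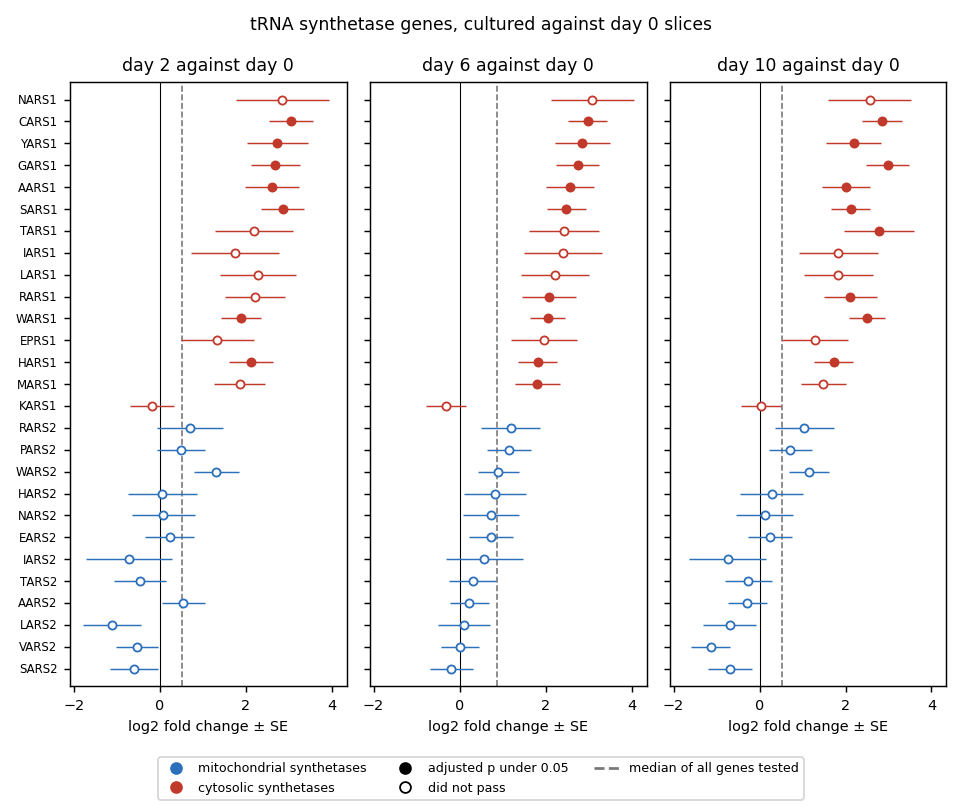
Log2 fold change ± SE of each synthetase gene (rows) on day 2, day 6 and day 10 against day 0, on log2(FPKM + 1), for 15 cytosolic genes in red and 12 mitochondrial genes in blue. Filled points passed an adjusted p of 0.05, and the dashed line is the median of all genes tested. 14 of the 15 cytosolic genes drawn lie to the right of that line in each panel, and 0 of the 12 mitochondrial genes have a filled point.

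The cysteine enzyme gene CARS1 (ENSSSCG00000012857) was at 8.37, 8.81 and 4.404 FPKM in the day 0 libraries, 80.3 and 52.5 on day 2, 87.4, 41.2 and 64.3 on day 6 and 46.1, 48.6 and 78.8 on day 10. Every cultured library lay above every day 0 library. The log2 fold change was 3.06 ± 0.51 on day 2 (SE, limma adjusted p = 0.00422), 2.98 ± 0.46 on day 6 (limma adjusted p = 0.00419) and 2.85 ± 0.46 on day 10 (limma adjusted p = 0.00104). The serine enzyme gene SARS1 (ENSSSCG00000006835) was at 43.7, 32.1 and 36.0 FPKM on day 0, 355 and 213 on day 2, 287, 143 and 229.6 on day 6 and 169.5, 108 and 241 on day 10. It rose by 2.86 ± 0.50, 2.48 ± 0.45 and 2.12 ± 0.45 on the log2 scale (limma adjusted p = 0.00531, 0.00872 and 0.00606). Its day 0 values were close to each other and all under the cultured ones. GARS1 (ENSSSCG00000016677), which in humans encodes the glycine enzyme of both cytosol and mitochondria, went from 32.0, 11.2 and 21.1 FPKM on day 0 to 132 and 134 on day 2, 186, 103 and 137 on day 6 and 119, 121 and 298 on day 10. The log2 fold changes were 2.69 ± 0.56, 2.74 ± 0.50 and 2.98 ± 0.50 (limma adjusted p = 0.0122, 0.00899 and 0.00144). Day 10 replicate 3 was far above the remaining day 10 libraries, and none overlapped day 0. A fit of only day 0 and day 2 ended the day 2 calls of CARS1, SARS1 and GARS1 (limma adjusted p = 0.101, 0.0850 and 0.125). Median ratio scaling ended the SARS1 calls on day 2, day 6 and day 10 (limma adjusted p = 0.0677, 0.180 and 0.126). It also ended those of CARS1 on day 2 and day 6 (0.0547 and 0.0849) and that of GARS1 on day 6 (0.0603). These calls ended for CARS1 on day 2 without day 2 replicate 1 (0.0506), for SARS1 on day 2 without day 2 replicate 1 (0.0617) and on day 6 without day 6 replicate 1 (0.0694) and for GARS1 on day 2 without day 2 replicate 1 or 2 (0.0757 and 0.0748) and on day 6 without day 6 replicate 1 (0.0699) (limma adjusted p in brackets).

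AARS1, HARS1 and WARS1, the alanine, histidine and tryptophan enzyme genes, also rose at all times. AARS1 (ENSSSCG00000002723) was at 37.5, 10.8 and 30.7 FPKM on day 0, 136 and 161 on day 2, 205, 83.2 and 172 on day 6 and 66.8, 81.3 and 171 on day 10. Log2 fold changes were 2.61 ± 0.62, 2.57 ± 0.56 and 2.02 ± 0.56 (limma adjusted p = 0.0227, 0.0168 and 0.0248). HARS1 (ENSSSCG00000014375) was at 18.0, 7.18 and 13.7 FPKM on day 0, 58.0 and 54.9 on day 2, 52.7, 33.1 and 53.2 on day 6 and 42.1, 31.0 and 59.2 on day 10. Its log2 fold changes were 2.12 ± 0.51, 1.81 ± 0.46 and 1.73 ± 0.46 (limma adjusted p = 0.0233, 0.0279 and 0.0199). HARS1 and HARS2 are similar in sequence and may share reads, so the level of each is uncertain to that extent. WARS1 (ENSSSCG00000002516), which is also known as an interferon-gamma target in human cells, was at 28.7, 20.8 and 21.6 FPKM on day 0, 81.0 and 99.8 on day 2, 115, 86.5 and 101 on day 6 and 114, 103 and 222 on day 10. Its log2 fold changes were 1.90 ± 0.46, 2.05 ± 0.41 and 2.50 ± 0.41 (limma adjusted p = 0.0250, 0.0134 and 0.00129). For all 3 genes no cultured library overlapped day 0. Median ratio scaling ended the AARS1 calls on day 6 and day 10 (limma adjusted p = 0.0811 and 0.0744). It ended the HARS1 calls on day 2, day 6 and day 10 (0.0976, 0.318 and 0.122). The WARS1 call on day 6 was also lost with it, as YARS1 was then the only synthetase gene to pass. On day 2, 3 synthetase genes rose with that scaling. The AARS1 and GARS1 calls held there, so the day 2 call of WARS1, of YARS1 or of both was lost. The AARS1 call ended on day 2 without day 2 replicate 1 or 2 (0.0930 and 0.125), on day 6 without day 6 replicate 1 or 3 (0.104 and 0.0697) and on day 10 without day 10 replicate 2 or 3 (0.0542 and 0.0984) (limma adjusted p in brackets). The HARS1 call ended on day 2 without day 2 replicate 1 or 2 (0.114 and 0.108), on day 6 without day 0 replicate 3 (0.0514) and day 6 replicate 1 or 3 (0.134 and 0.107) and on day 10 without day 10 replicate 1 or 3 (0.0530 and 0.0740). The WARS1 call ended on day 2 without day 0 replicate 3 (0.0616) and day 2 replicate 1 or 2 (0.0949 and 0.152) and on day 6 without day 6 replicate 1 or 3 (0.0886 and 0.0528).

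The tyrosine enzyme gene YARS1 (ENSSSCG00000030369) had the lowest mean level of the class, with 0.956, 0.336 and 0.259 FPKM on day 0, 5.04 and 15.3 on day 2, 12.9, 12.1 and 5.82 on day 6 and 1.81, 11.5 and 7.86 on day 10. It rose by 2.74 ± 0.71, 2.85 ± 0.64 and 2.19 ± 0.64 on the log2(FPKM + 1) scale, which understates changes of low genes (limma adjusted p = 0.0322, 0.0191 and 0.0316). The arginine enzyme gene RARS1 (ENSSSCG00000017015) went from 10.7, 3.63 and 21.0 FPKM on day 0 to 68.9, 21.3 and 56.7 on day 6 and 53.1, 28.2 and 59.9 on day 10. Its log2 fold changes were 2.08 ± 0.62 and 2.11 ± 0.62 (limma adjusted p = 0.0487 and 0.0328), and day 2 gave 39.9 and 58.5 FPKM. The methionine enzyme gene MARS1 (ENSSSCG00000023318) passed on day 6 alone, at 21.8, 11.7 and 18.8 against 7.35, 2.22 and 3.94 FPKM (log2 fold change 1.81 ± 0.52, limma adjusted p = 0.0447). Day 2 gave 13.6 and 22.3 FPKM and day 10 gave 13.5, 8.40 and 20.4. The threonine enzyme gene TARS1 (ENSSSCG00000016817) passed on day 10 alone, at 57.1, 24.0 and 45.5 against 10.3, 0.310 and 12.9 FPKM (log2 fold change 2.79 ± 0.81, limma adjusted p = 0.0314). Day 2 gave 20.4 and 32.9 FPKM and day 6 gave 55.3, 14.0 and 36.9. None of these called changes had overlapping libraries. Median ratio scaling ended the RARS1 calls on day 6 and day 10 (limma adjusted p = 0.223 and 0.0606) and the MARS1 call on day 6 (0.246). The YARS1 call ended on day 2 without day 0 replicate 3 (0.0766) and day 2 replicate 1 or 2 (0.0526 and 0.242), on day 6 without day 6 replicate 1 or 2 (0.107 and 0.0591) and on day 10 without day 0 replicate 3 (0.0804) and day 10 replicate 2 or 3 (0.132 and 0.108) (limma adjusted p in brackets). That of RARS1 ended on day 6 without day 0 replicate 1 or 2 (0.0658 and 0.103) and day 6 replicate 1 or 3 (0.195 and 0.155) and on day 10 without day 0 replicate 1 or 2 (0.0602 and 0.0662) and day 10 replicate 1 or 3 (0.0981 and 0.110). Those of MARS1 and TARS1 ended on day 6 without day 0 replicate 2 or 3 (0.0785 and 0.0756) and day 6 replicate 1 or 2 or 3 (0.182, 0.0684 and 0.140) and on day 10 without day 10 replicate 1 or 2 or 3 (0.104, 0.0535 and 0.0948).

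The remaining 6 cytosolic genes did not pass at any day. NARS1, the asparagine enzyme gene, was at 29.5, 0.715 and 42.2 FPKM on day 0, 63.1 and 139 on day 2, 142, 59.95 and 157 on day 6 and 61.1, 55.3 and 132 on day 10, again with all cultured libraries above day 0. It did not pass (log2 fold change on day 6 3.09 ± 0.97, limma adjusted p = 0.0570). Day 6 did pass in some alternatives. These included a pseudocount of 5 (limma adjusted p = 0.0378), a mean FPKM of at least 5 (0.0492), the replicate block (0.0427) and omission of day 0 replicate 1 or 3 (0.0433 and 0.0376). Day 0 replicate 2 lay far below the other day 0 libraries. The isoleucine and leucine enzyme genes IARS1 and LARS1, also lowest in that library, were at 8.37, 0.0566 and 9.01 and 9.01, 0.589 and 15.2 FPKM on day 0 and at 18.7, 15.3 and 44.7 and 42.1, 12.1 and 44.6 on day 6. EPRS1, whose product carries both the glutamate and the proline activity, was at 20.7, 2.47 and 22.1 FPKM on day 0 and 16.2, 24.3 and 58.9 on day 10. In IARS1, LARS1 and EPRS1 day 0 replicate 2 was the lowest of the 11 libraries.

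KARS1 (ENSSSCG00000002704), which in humans encodes the lysine enzyme of both cytosol and mitochondria, was the least changed gene of the class on day 6. It was at 228, 165 and 231 FPKM on day 0, 143 and 229 on day 2, 165, 147 and 185 on day 6 and 191, 125 and 384 on day 10, so that the groups overlapped (day 6 log2 fold change -0.31 ± 0.46, limma adjusted p = 0.619). At day 0 it was the most abundant synthetase gene per length, with a mean of 208 ± 37.4 FPKM (SD, n = 3) beside 37.2 ± 5.90 for SARS1. By day 6 SARS1 averaged 219.6 ± 72.6 and AARS1 154 ± 63.1 FPKM beside 166 ± 18.8 for KARS1.

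No mitochondrial synthetase gene passed the test. In limma 0 of 13 passed in each of the 4 comparisons, and limma voom also gave 0. Of all genes 8.9%, 11.3%, 18.2% and 4.9% passed, so that 0 of 13 is not far from the background. At an unadjusted p under 0.05 there was 1 higher gene on day 2, 1 higher on day 6, 1 higher and 1 lower on day 10, and 1 lower between day 10 and day 6. Their median log2 fold changes were 0.08, 0.59, 0.12 and -0.51, under the medians of all genes of 0.51, 0.88, 0.51 and -0.43. In each comparison 3 of 13 were above the median of all genes.

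WARS2, the mitochondrial tryptophan enzyme gene, was at 1.76, 0.794 and 2.15 FPKM on day 0, 5.19 and 5.24 on day 2, 4.31, 2.13 and 5.13 on day 6 and 4.19, 3.99 and 5.57 on day 10. VARS2, the valine enzyme gene (ENSSSCG00000001384), was at 17.4, 12.2 and 13.7 FPKM on day 0, 9.02 and 10.2 on day 2, 15.8, 12.03 and 15.6 on day 6 and 4.02, 5.72 and 8.88 on day 10. Its day 10 libraries all lay under day 0 and day 6 (day 10 log2 fold change -1.14 ± 0.44, limma adjusted p = 0.0918). This passed as lower with median ratio scaling (limma adjusted p = 0.0155), with quantile normalization (0.00731), with no filter on low values (0.0477), without both libraries with the most genes at 0 (0.0422), and with that scaling added to the latter (0.00923). At day 6 it was the least changed of the class. LARS2 and IARS2, the leucine and isoleucine enzyme genes, were at 9.90, 1.93 and 7.06 and 22.1, 1.36 and 20.9 FPKM on day 0 and at 2.14, 2.69 and 4.21 and 3.62, 4.15 and 9.83 on day 10. In both genes day 0 replicate 2 was low and replicates 1 and 3 lay above every day 10 library. On day 10 LARS2 passed as lower with quantile normalization, IARS2 without both libraries with the most genes at 0, and both with median ratio scaling added to that omission. Day means lay between 3.31 and 15.6 FPKM in 8 further genes. These were AARS2, EARS2, HARS2, NARS2, PARS2, RARS2, SARS2 and TARS2, the alanine, glutamate, histidine, asparagine, proline, arginine, serine and threonine enzyme genes.

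For 11 amino acids both the cytosolic and the mitochondrial gene were in the table, which allowed a ratio within each library that does not depend on the scaling of that library, apart from the pseudocount. The median log2 ratio of cytosolic to mitochondrial (FPKM + 1) over the 11 pairs was 1.97, 1.23 and 1.99 in the day 0 libraries, 3.75 and 3.00 on day 2, 3.17, 2.19 and 2.88 on day 6, and 2.56, 2.56 and 3.18 on day 10. All 8 cultured libraries lay above all 3 day 0 libraries. The mean ratio was higher than on day 0 in 11 of 11 pairs at each time, and 10, 8 and 10 pairs had no overlap with day 0 on day 2, day 6 and day 10. These counts were not made for pairs of other genes, so no background share stands beside them and how unusual they are was not tested. Among the pairs, SARS1 over SARS2 had log2 ratios of 2.47, 1.33 and 2.61 on day 0, 6.39 and 4.81 on day 2, 4.94, 4.64 and 4.85 on day 6, and 5.35, 4.02 and 5.45 on day 10. IARS1 over IARS2 went from -1.30, -1.16 and -1.13 on day 0 to 1.40 and 1.13 on day 2, 0.32, 0.74 and 0.82 on day 6, and 0.75, 1.74 and 1.64 on day 10. The mitochondrial isoleucine gene was thus the higher of its pair in fresh slices and the lower one in all cultured libraries.

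**Figure D2:**
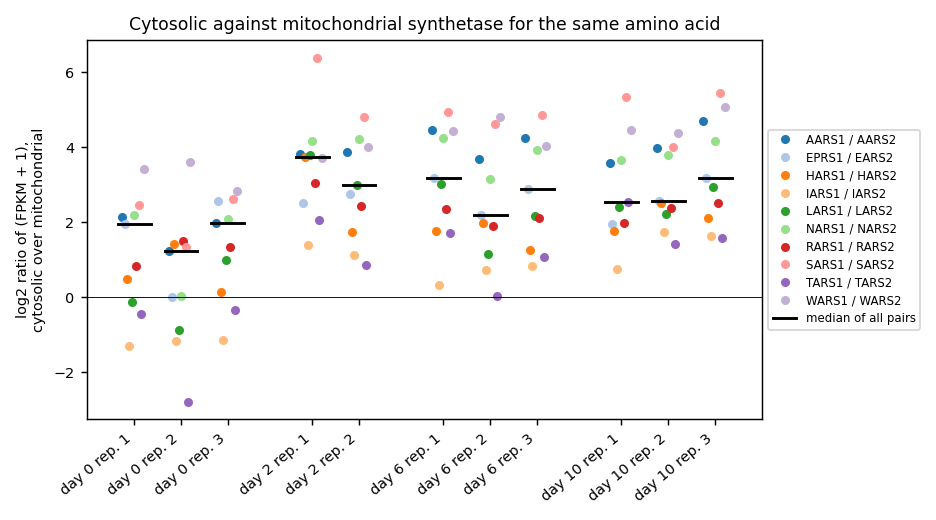
Log2 ratio of (FPKM + 1) of the cytosolic over the mitochondrial synthetase gene for the same amino acid, in each library, with 1 colour for each of 10 pairs and a black bar at the median of all 11. The medians are between 1.23 and 1.99 on day 0 and between 2.19 and 3.75 in the cultured libraries.

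Set against the translation factors, the median level of the cytosolic synthetases was lower in the fresh slices than in the cultured ones. The median log2(FPKM + 1) of the 16 cytosolic synthetases minus that of the 38 initiation and elongation factors was -0.57, -1.57 and -0.57 in the day 0 libraries. It was -0.14 and -0.09 on day 2, -0.08, -0.26 and -0.20 on day 6, and 0.05, -0.40 and 0.29 on day 10. Group means were -0.90 ± 0.58 (SD, n = 3) on day 0, -0.12 ± 0.04 (n = 2) on day 2, -0.18 ± 0.09 (n = 3) on day 6 and -0.02 ± 0.35 (n = 3) on day 10. No cultured library was as low as any day 0 library, except with a filter of a mean FPKM of at least 5, where day 6 overlapped day 0. The shift of the mean was 0.79 on day 2, 0.72 on day 6 and 0.88 on day 10, and without day 0 replicate 2 it was 0.45, 0.39 and 0.55. With the filter of 5 FPKM the shift on day 6 was 0.41.

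**Figure D3:**
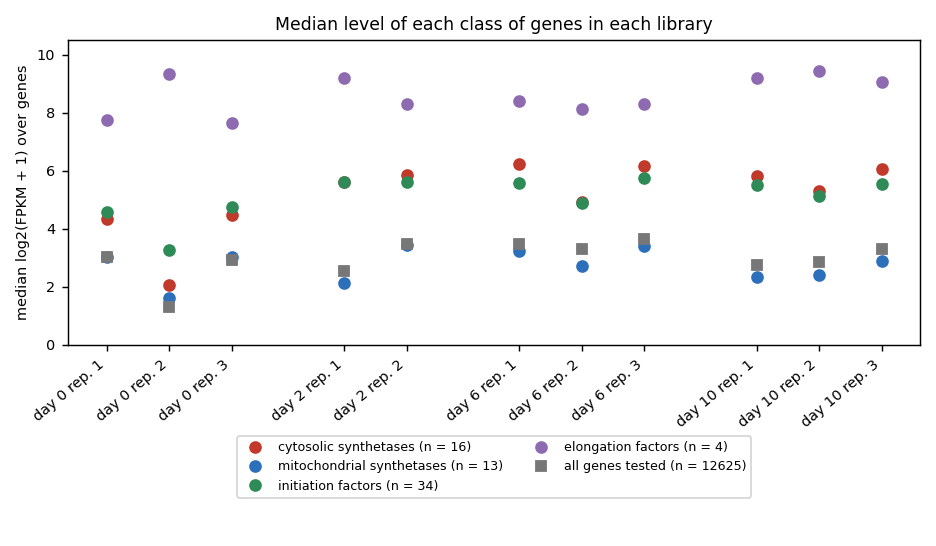
Median log2(FPKM + 1) of each class of genes in each of the 11 libraries, with all 12625 tested genes as grey squares. The median of cytosolic synthetases (red) lies 0.76 to 1.53 above the grey squares on day 0 and 1.63 to 3.08 above them in cultured libraries. That of mitochondrial synthetases (blue) lies 0.03 to 0.58 below the grey squares in cultured libraries. Initiation and elongation factors are drawn apart, so their joint median is not shown.

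Against all genes the classes separated further. The median of cytosolic synthetases exceeded that of all genes by 1.31, 0.76 and 1.53 on day 0, 3.08 and 2.37 on day 2, 2.77, 1.63 and 2.52 on day 6, and 3.06, 2.46 and 2.77 on day 10. For mitochondrial synthetases the difference was -0.02, 0.32 and 0.08 on day 0, -0.41 and -0.03 on day 2, -0.25, -0.58 and -0.25 on day 6, and -0.42, -0.47 and -0.42 on day 10. For the mitochondrial genes every cultured library thus lay under every day 0 library, though day 2 replicate 2 and day 0 replicate 1 were nearly level. Without a filter, or with one at 5 FPKM, the groups overlapped. The gap from mitochondrial to cytosolic medians was -1.33, -0.44 and -1.45 on day 0 and between -2.22 and -3.49 in culture.

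Of 34 initiation factor genes, 2 rose on day 2, 4 on day 6 and 6 on day 10, and 0 fell. Of all genes 5.76%, 9.55% and 11.9% rose and 3.14%, 1.76% and 6.23% fell, so that the counts of the class lie near the background. Between day 6 and day 10, 0 passed in limma, 1 was higher and 1 lower at an unadjusted p under 0.05, and 1 passed with limma voom. Median log2 fold changes were 1.26, 1.38, 1.01 and -0.18, and 27, 25 and 25 of 34 lay above the median of all genes on day 2, day 6 and day 10. No test of the difference in counts between the classes was made.

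**Figure D4:**
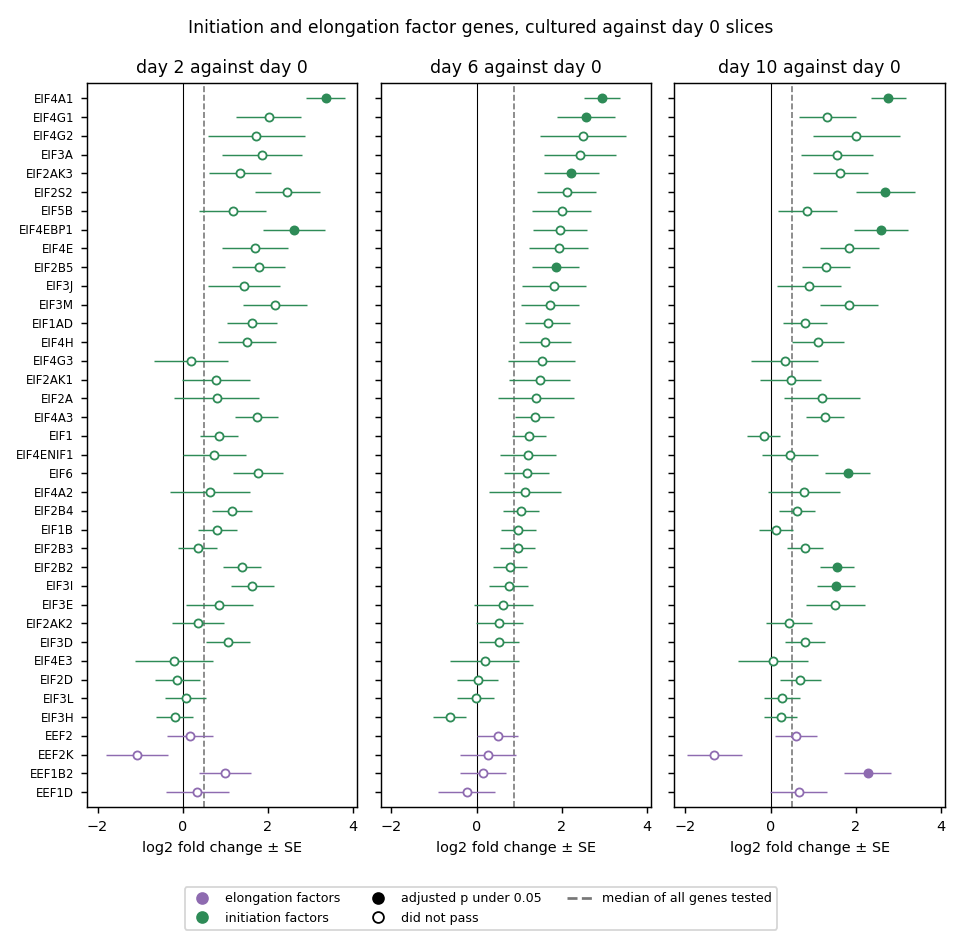
Log2 fold change ± SE of each initiation factor gene (green, n = 34) and elongation factor gene (purple, n = 4) on day 2, day 6 and day 10 against day 0, on log2(FPKM + 1). Filled points passed an adjusted p of 0.05, and the dashed line is the median of all genes tested. EIF4A1 is filled in all panels, and EEF1B2 only on day 10.

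EIF4A1 (ENSSSCG00000017957), the RNA helicase that unwinds the mRNA near its cap, had the largest log2 fold change of the factors on each day against day 0. It was at 74.7, 46.4 and 54.6 FPKM on day 0, 592 and 597 on day 2, 516, 437 and 398 on day 6 and 479, 259 and 505 on day 10, with no overlap between cultured and fresh slices. The log2 fold change was 3.35 ± 0.46 on day 2 (limma adjusted p = 0.00166), 2.94 ± 0.41 on day 6 (limma adjusted p = 0.00259) and 2.77 ± 0.41 on day 10 (limma adjusted p = 5.86e-04). Leaving out any single library did not end these calls. Median ratio scaling ended the one on day 6 (log2 fold change 1.80, limma adjusted p = 0.0742), and a fit of only day 0 and day 2 the one on day 2 (limma adjusted p = 0.0712). Its close relative EIF4A2 (ENSSSCG00000011803), with which it may share reads, was at 180.2, 15.7 and 307 FPKM on day 0, 99.5 and 228 on day 2, 224, 198 and 215 on day 6 and 205, 106 and 213 on day 10. The ratio of EIF4A1 to EIF4A2 was 0.415, 2.96 and 0.178 on day 0, 5.95 and 2.63 on day 2, 2.31, 2.21 and 1.85 on day 6, and 2.33, 2.43 and 2.37 on day 10. Day 0 replicate 2, the library with the most genes at 0, had a ratio within the range of cultured slices and the lowest EIF4A2 level of all libraries. The more distant helicase EIF4A3, a core part of the exon junction complex, was at 13.3, 7.83 and 9.18 FPKM on day 0 and 32.2, 24.4 and 25.1 on day 6, and the helicase cofactor EIF4H at 149, 23.2 and 115 and 230.1, 186 and 272 FPKM.

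Of the genes for cap binding, EIF4G1 (ENSSSCG00000030255), the scaffold that joins cap-binding protein, helicase and ribosome, rose on day 6. It was at 68.9, 9.17 and 35.0 FPKM on day 0, 88.6 and 157 on day 2, 172, 126 and 241 on day 6 and 38.3, 73.5 and 139.7 on day 10. Day 6 lay above day 0 without overlap (log2 fold change 2.56 ± 0.68, limma adjusted p = 0.0332), and day 10 did not pass (1.34 ± 0.68, limma adjusted p = 0.190). EIF4EBP1 (ENSSSCG00000022301), an inhibitor that binds EIF4E until mTOR phosphorylates it, was at 43.5, 129.8 and 28.8 FPKM on day 0, 568 and 202 on day 2, 368, 109 and 249.8 on day 6 and 478, 317 and 247 on day 10. It rose on day 2 (log2 fold change 2.61 ± 0.72, limma adjusted p = 0.0398) and day 10 (2.59 ± 0.64, limma adjusted p = 0.0146), while day 6 overlapped day 0 and did not pass (1.96 ± 0.64, limma adjusted p = 0.0643). Without day 0 replicate 2 day 6 passed (2.58, limma adjusted p = 0.0173), as it did with quantile normalization (0.0429), and median ratio scaling gave the highest p of the alternatives (0.610). That scaling ended the EIF4EBP1 calls on day 2 and day 10 (limma adjusted p = 0.324 and 0.207) and the EIF4G1 call on day 6 (0.102). The cap-binding protein gene EIF4E (ENSSSCG00000028420) was at 11.4, 1.34 and 18.5 FPKM on day 0, 19.0 and 34.8 on day 2, 35.2, 22.1 and 35.8 on day 6 and 47.5, 21.2 and 23.6 on day 10 (day 6 log2 fold change 1.92 ± 0.69, limma adjusted p = 0.0830). All of its cultured libraries were above day 0, by a narrow margin in day 2 replicate 1. The scaffold relatives EIF4G2 and EIF4G3 were at 446, 322 and 578 and 26.1, 12.4 and 33.9 FPKM on day 6 against 232, 7.89 and 224 and 15.8, 0.881 and 15.9 on day 0. The calls ended for EIF4G1 on day 6 without day 0 replicate 2 or 3 (0.0564 and 0.0534) and day 6 replicate 1 or 2 or 3 (0.124, 0.0600 and 0.118) and for EIF4EBP1 on day 2 without day 0 replicate 1 or 3 (0.0851 and 0.102) and day 2 replicate 1 or 2 (0.203 and 0.0611) and on day 10 without day 0 replicate 3 (0.0544) and day 10 replicate 1 (0.0595) (limma adjusted p in brackets).

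Of 3 genes for delivery of the initiator tRNA, the eIF2 subunit gene EIF2S2 and the separate factors EIF2A and EIF2D, 1 rose on day 10. Of 4 genes for the eIF2 exchange factor eIF2B, 1 rose on day 6 and 1 on day 10. On these days 9.55% and 11.9% of all genes rose. EIF2S2 (ENSSSCG00000026617), the beta subunit of eIF2, was at 35.3, 7.48 and 58.2 FPKM on day 0, 152 and 135 on day 2, 171, 49.6 and 168 on day 6 and 251, 134 and 145 on day 10. It passed on day 10 (log2 fold change 2.70 ± 0.69, limma adjusted p = 0.0169), where all libraries lay above day 0. The eIF2B subunit gene EIF2B2 (ENSSSCG00000002377) was at 16.8, 23.4 and 17.4 FPKM on day 0 and 76.4, 43.7 and 58.7 on day 10 (log2 fold change 1.56 ± 0.40, limma adjusted p = 0.0164), after 55.3 and 47.7 on day 2 and 38.3, 29.0 and 33.3 on day 6. EIF2B5 (ENSSSCG00000011783), the catalytic epsilon subunit, was at 12.1, 3.20 and 10.9 FPKM on day 0 and 32.0, 23.6 and 36.7 on day 6 (log2 fold change 1.85 ± 0.55, limma adjusted p = 0.0490). Its levels were 18.2 and 45.1 FPKM on day 2 and 18.4, 14.7 and 31.0 on day 10. None of the called changes had overlapping libraries. Median ratio scaling ended the EIF2B2 call on day 10 (limma adjusted p = 0.378) and the EIF2B5 call on day 6 (0.221). EIF2B3 and EIF2B4 were at 17.1, 18.7 and 18.1 and 18.5, 18.5 and 21.4 FPKM on day 0 and at 36.4, 28.0 and 45.2 and 46.4, 28.1 and 52.6 on day 6, without overlap and without a call. The calls ended for EIF2S2 on day 10 without day 10 replicate 1 (0.0681), for EIF2B2 on day 10 without day 0 replicate 1 (0.0523) and day 10 replicate 1 (0.0640) and for EIF2B5 on day 6 without day 0 replicate 2 or 3 (0.0970 and 0.0580) and day 6 replicate 1 or 2 or 3 (0.170, 0.0823 and 0.155) (limma adjusted p in brackets).

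EIF2AK3 (ENSSSCG00000008208), known as PERK, the kinase that phosphorylates eIF2 alpha when the endoplasmic reticulum is loaded with unfolded protein, was at 4.04, 0.270 and 4.35 FPKM on day 0. It was at 4.04 and 12.6 on day 2, 15.7, 12.2 and 14.6 on day 6 and 4.97, 10.51 and 13.9 on day 10, and it passed on day 6 (log2 fold change 2.22 ± 0.65, limma adjusted p = 0.0455) but not on day 10 (1.63 ± 0.65, limma adjusted p = 0.0981). That call ended on day 6 without day 0 replicate 2 or 3 (0.0871 and 0.0514) and day 6 replicate 1 or 2 or 3 (0.165, 0.0905 and 0.132) (limma adjusted p in brackets). Median ratio scaling also ended it (limma adjusted p = 0.0846). The haem-regulated kinase EIF2AK1 was at 13.9, 0.783 and 9.68 FPKM on day 0 and 17.4, 16.2 and 18.4 on day 6. EIF2AK2, known as PKR, which responds to double-stranded RNA, was listed at 0 in day 0 replicate 2 and averaged 2.46 ± 1.35 FPKM (SD, n = 3) on day 6.

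Of 8 eIF3 subunit genes, 1 rose on day 10 and 0 on day 2 and day 6, near the 11.9%, 5.76% and 9.55% of all genes that rose. EIF3I (ENSSSCG00000003612) was at 68.3, 153 and 61.2 FPKM on day 0, 304 and 237 on day 2, 181, 125 and 137 on day 6 and 343, 257 and 182 on day 10 (day 10 log2 fold change 1.54 ± 0.45, limma adjusted p = 0.0332). EIF3L, the least changed initiation factor on day 6, was at 185, 285 and 164 FPKM on day 0 and 212, 182 and 212 on day 6. EIF3H was the one subunit lower on day 6 than on day 0 in every library, at 239.9, 247 and 189 against 347, 283 and 428 FPKM, without a call, and it was back at 457, 408 and 372 on day 10. EIF6 (ENSSSCG00000022864), which keeps the large ribosomal subunit from joining too early and also serves in its assembly, was at 62.8, 199 and 69.4 FPKM on day 0, 417 and 255 on day 2, 279.5, 151 and 240.0 on day 6 and 447, 387 and 220.1 on day 10. It passed on day 10 (log2 fold change 1.81 ± 0.52, limma adjusted p = 0.0305). EIF3A, the largest subunit, was at 37.9, 2.51 and 37.9 FPKM on day 0 and 134, 42.7 and 140.1 on day 6. The subunit genes EIF3D, EIF3E, EIF3J and EIF3M had day means between 12.3 and 295 FPKM and did not pass. In both EIF3I and EIF6 day 0 replicate 2 was the highest of the day 0 libraries. Median ratio scaling ended the day 10 calls of EIF3I and EIF6 (limma adjusted p = 0.5275 and 0.4375). The calls ended for EIF3I on day 10 without day 0 replicate 1 or 3 (0.0982 and 0.103) and day 10 replicate 1 or 2 (0.113 and 0.0822) and for EIF6 on day 10 without day 0 replicate 1 or 3 (0.1003 and 0.0893) and day 10 replicate 1 or 2 (0.103 and 0.0915) (limma adjusted p in brackets).

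EIF1, a small protein that guards the choice of the start codon, was named after its values were seen. It was at 515, 506 and 434 FPKM on day 0, 1071 and 708 on day 2, 1222, 1109 and 1086 on day 6 and 526, 344 and 447 on day 10. Day 6 stood above day 0 and day 10 without overlap. Neither difference passed (log2 fold change 1.23 ± 0.40 on day 6 against day 0, limma adjusted p = 0.0609, and -1.39 ± 0.40 on day 10 against day 6, limma adjusted p = 0.0640). With no filter both passed (limma adjusted p = 0.0372 and 0.0328), as they did with quantile normalization (0.00951 and 0.00341). Median ratio scaling gave the highest p of the alternatives for both (0.955 and 0.491). Its relative EIF1B, which may share reads with EIF1, was at 68.5, 48.2 and 65.6 FPKM on day 0, 157, 87.8 and 123 on day 6 and 86.7, 64.8 and 50.1 on day 10. EIF5B, a GTPase that joins the ribosomal subunits, was at 6.64, 0.812 and 10.3 FPKM on day 0 and 29.1, 9.04 and 31.7 on day 6, without a call. EIF1AD, EIF2A, EIF2D, EIF4E3 and EIF4ENIF1, the last of which encodes a carrier of EIF4E into the nucleus, had day means between 3.02 and 35.6 FPKM and did not pass.

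Elongation factor genes had the highest median level per length of the classes, and 1 of them passed. Of all genes 8.9%, 11.3% and 18.2% passed on day 2, day 6 and day 10 against day 0, and 4.9% on day 10 against day 6. Counts among 4 genes are too small to be set apart from these shares. Of the 4 genes, 0 passed on day 2 and on day 6, with 0 at an unadjusted p under 0.05 and 0 with limma voom. On day 10, 1 passed against both day 0 and day 6. That gene was EEF1B2 (ENSSSCG00000016128), a subunit of the factor that reloads eEF1A with GTP. It was at 356, 742 and 321 FPKM on day 0, 1318 and 572 on day 2, 539.5, 374 and 567 on day 6 and 2266, 3611 and 1191 on day 10. Day 10 lay above day 0 and day 6 without overlap, replicate 2 the highest. The log2 fold change was 2.28 ± 0.55 against day 0 (limma adjusted p = 0.0124) and 2.13 ± 0.55 against day 6 (limma adjusted p = 0.0413). With the replicate number as a block, the day 6 comparison did not pass (limma adjusted p = 0.0569). The call against day 0 ended on day 10 without day 10 replicate 2 (0.0587), and that against day 6 without day 6 replicate 1 or 2 or 3 (0.114, 0.169 and 0.114) and day 10 replicate 1 or 2 (0.128 and 0.187) (limma adjusted p in brackets). Median ratio scaling also ended both calls (limma adjusted p = 0.275 and 0.143). EEF1D, another subunit of the same factor, was at 129, 759 and 126 FPKM on day 0, 208, 209.7 and 175 on day 6 and 415, 498 and 238 on day 10.

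EEF2 (ENSSSCG00000025675), the factor that moves the ribosome by a codon, was at 1037, 559 and 793 FPKM on day 0, 696 and 1076 on day 2, 1092, 851 and 1385 on day 6 and 821, 964 and 2022 on day 10. The groups overlapped (day 10 log2 fold change 0.60 ± 0.49, limma adjusted p = 0.424, and -0.14 with median ratio scaling). EEF2K (ENSSSCG00000007839), the calcium-dependent kinase that inactivates eEF2, was at 20.3, 3.41 and 17.4 FPKM on day 0, 3.603 and 6.17 on day 2, 12.9, 10.0 and 18.6 on day 6 and 2.12, 3.14 and 7.70 on day 10. Day 0 replicate 2 lay among the day 10 values, and the day 10 difference did not pass (log2 fold change -1.32 ± 0.65, limma adjusted p = 0.180). It passed as lower without that library (-2.04, limma adjusted p = 0.0135), with median ratio scaling (-1.96, limma adjusted p = 0.00710) and with quantile normalization (-1.88, limma adjusted p = 0.00374). The ratio of EEF2K to EEF2 was 0.0196, 0.00610 and 0.0219 on day 0, 0.00517 and 0.00573 on day 2, 0.0119, 0.0118 and 0.0134 on day 6, and 0.00258, 0.00326 and 0.00381 on day 10. Within libraries this ratio was thus lowest in the 3 day 10 libraries.

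**Figure D5:**
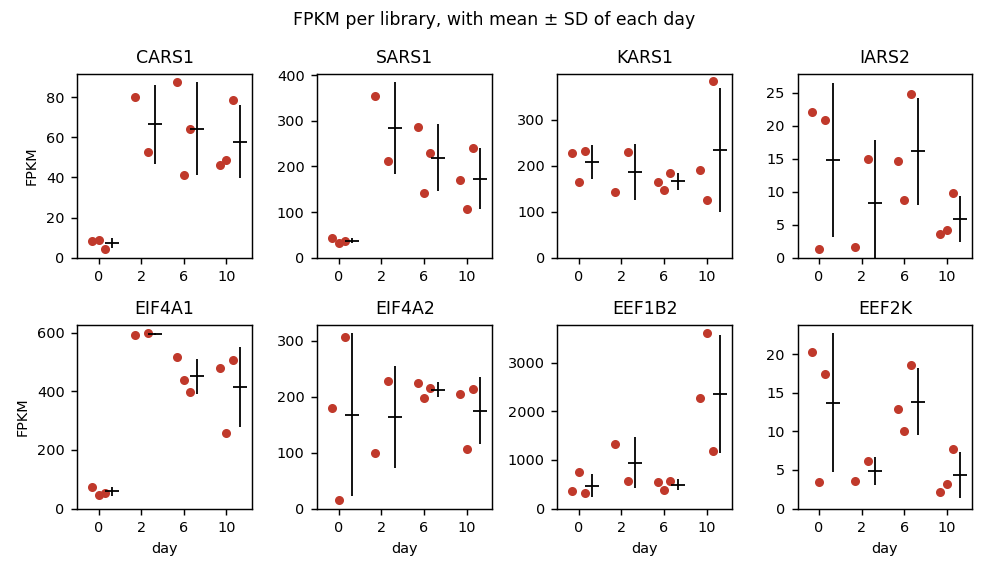
FPKM of 8 genes in each library (red points) by day of culture, with the mean ± SD of each day beside them (black, n = 3, 2, 3 and 3). CARS1, SARS1 and EIF4A1 lie higher in every cultured library than in any day 0 library, KARS1 and EIF4A2 overlap, EEF1B2 is highest on day 10, and IARS2 and EEF2K show the low value of day 0 replicate 2.

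Other genes of the pathway were taken from 6 lists. Of 14 tested genes for termination, recycling and poly(A) binding, 1 rose on day 2, 3 on day 6 and 4 on day 10, with medians of 1.45, 1.605 and 1.29. Of all genes 5.76%, 9.55% and 11.9% rose, against which the counts in these short lists are to be read. PELO, which rescues stalled ribosomes, rose from 19.2 ± 6.33 to 78.7 ± 10.1 FPKM on day 2 (log2 fold change 2.02 ± 0.46, limma adjusted p = 0.0190) and was at 63.9 ± 12.7 on day 10 (1.71 ± 0.41, limma adjusted p = 0.0128). The poly(A)-binding protein gene PABPC1 rose from 75.3 ± 52.6 to 421 ± 11.02 FPKM on day 6 (2.83 ± 0.62, limma adjusted p = 0.0176). The PELO call ended on day 2 without day 2 replicate 1 or 2 (0.0850 and 0.121) and the PABPC1 call on day 6 without day 6 replicate 1 or 2 or 3 (0.0909, 0.0505 and 0.0611) (limma adjusted p in brackets). Median ratio scaling ended the PELO calls on day 2 and day 10 (0.160 and 0.166) and the PABPC1 call on day 6 (0.0558). Of 6 synthetase subunits, scaffold proteins and relatives, 1 rose at each time, the peptidyl-tRNA hydrolase gene PTRH2, from 13.5 ± 4.74 to 62.0 ± 32.5 FPKM on day 10 (2.04 ± 0.56, limma adjusted p = 0.0246). That call ended on day 10 without day 10 replicate 1 or 2 (0.0994 and 0.0734) (limma adjusted p in brackets). Median ratio scaling ended the PTRH2 calls on all 3 days (0.152, 0.459 and 0.172), as did quantile normalization, and limma voom gave 0 calls in this list.

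No gene in the list of mitochondrial translation factors passed. In each of the 4 comparisons 0 of 9 passed in limma and with limma voom. Of all genes 8.9%, 11.3%, 18.2% and 4.9% passed, so that 0 of 9 is not far from the background. At an unadjusted p under 0.05 there was 1 higher on day 2, 1 higher on day 6 and 0 otherwise. Medians were 0.07, 0.47, -0.18 and -0.53 beside 0.51, 0.88, 0.51 and -0.43 over all genes. TUFM, the mitochondrial elongation factor Tu, was at 137 ± 49.1 FPKM on day 0 and 79.5 ± 20.2 on day 10 (log2 fold change -0.75 ± 0.42, limma adjusted p = 0.242). Of 3 genes that modify elongation factors, 0 passed in limma or with limma voom, which is also near these shares. At an unadjusted p under 0.05 there was 1 on day 2 and 0 in the other comparisons.

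Of 17 genes that signal to translation, 2 rose on day 2, 4 on day 6 and 1 on day 10 against day 0, while 5.76%, 9.55% and 11.9% of all genes rose. From day 6 to day 10, 2 of them fell, while 2.99% of all genes fell. MKNK2, a kinase of the cap-binding protein EIF4E, rose from 56.5 ± 27.6 on day 0 to 282 ± 70.8 FPKM on day 6 (log2 fold change 2.38 ± 0.49, limma adjusted p = 0.0146) and fell to 36.4 ± 17.7 on day 10 (-2.99 ± 0.49 against day 6, limma adjusted p = 0.00357). The fall held in 17 of 17 alternatives, and the rise ended on day 6 without day 6 replicate 1 (0.0909) and with median ratio scaling (0.179), with the limma adjusted p in brackets. PPP1R15A, known as GADD34, which directs a phosphatase to eIF2 alpha, rose from 30.6 ± 7.36 to 147 ± 80.9 FPKM on day 6 (2.06 ± 0.53, limma adjusted p = 0.0313) and fell to 21.7 ± 6.06 on day 10 (-2.55 ± 0.53, limma adjusted p = 0.0149). DNAJC3, an inhibitor of eIF2 alpha kinases, rose on day 6 from 6.21 ± 4.95 to 52.6 ± 21.0 FPKM (3.22 ± 0.69, limma adjusted p = 0.0166). It also rose on day 2 (2.97 ± 0.77, limma adjusted p = 0.0320) and day 10 (2.23 ± 0.69, limma adjusted p = 0.0401). PPP1R15A rose on day 2 as well (2.29 ± 0.59, limma adjusted p = 0.0316). A fit of only the compared groups ended the DNAJC3 calls on day 2, day 6 and day 10 (0.2225, 0.0560 and 0.105). It also ended the PPP1R15A calls on day 2 and day 6 (0.144 and 0.0684). The DNAJC3 calls on day 2 and day 10 were lost with a pseudocount of 0.1 (0.0552 and 0.0597), with no filter (0.0650 and 0.0759) and with limma voom (0.0546 and 0.0716). On day 10 that of DNAJC3 was also lost with median ratio scaling (0.0576) and without day 0 replicate 2 (0.0735) or day 10 replicate 1 or 3 (0.121 and 0.130). The calls ended for PPP1R15A on day 6 without day 0 replicate 3 (0.0608) and day 6 replicate 1 or 2 (0.149 and 0.0978) and against day 6 without day 6 replicate 1 or 2 (0.0765 and 0.0801) and day 10 replicate 1 or 2 (0.0684 and 0.0535) and for DNAJC3 on day 6 without day 6 replicate 1 or 3 (0.101 and 0.0601) (limma adjusted p in brackets). Median ratio scaling took the PPP1R15A rise to 0.92 (limma adjusted p = 0.401) and ended its fall (0.0962), and quantile normalization ended the rise (0.0664). Of 13 amino acid and eIF2 alpha stress response targets, 8, 9 and 9 rose on day 2, day 6 and day 10, with medians of 2.44, 2.57 and 2.34. From day 6 to day 10, 3 of them rose and 1 fell, while 1.91% of all genes rose and 2.99% fell.

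The number of calls moved with median ratio scaling and with single libraries. With that scaling 3 synthetases rose and 1 fell on day 2, 1 rose on day 6, and 5 rose and 1 fell on day 10, where LARS2 was the lower gene on day 2 and VARS2 on day 10. YARS1 was the gene higher on day 6, and CARS1, GARS1, TARS1, WARS1 and YARS1 were those on day 10. Of the factors, EIF4A1 rose and EEF2K fell on day 2, none passed on day 6, and on day 10 EIF4A1 and EIF2S2 rose and EEF2K fell. Without day 2 replicate 1 and day 2 replicate 2 the day 2 count was 0 and 2. Without day 6 replicate 1 and day 6 replicate 3 the day 6 count was 1 and 4, and without day 10 replicate 3 the day 10 count was 4. Over the same omissions fewer of all genes passed as well, namely 188 higher and 172 lower, and 237 and 162, on day 2. At day 6 these were 105 and 14, and 313 and 39, and on day 10 942 and 605. The count of factors on day 2 was 1 without day 0 replicate 1 and without either day 2 library, and 6 without day 0 replicate 2. At day 6 it was 1 without each of the day 6 libraries, and on day 10 the omission of day 0 replicate 1, day 10 replicate 1 or day 10 replicate 2 left 4, 2 and 4. With only day 0 and day 2 libraries in the fit, 0 members passed on day 2, and 11 of all genes were higher and 6 lower. None of the 39 calls on members (genes of the 4 classes) changed direction in any of 654 alternative results.

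Levels in day 0 replicate 2, which stood apart, differed with gene length. Of the 67 genes, 34 with a gene length of at least 2.216 kb, as implied by their values, were lower in day 0 replicate 2 than in the mean of the remaining day 0 libraries by a median of -2.08 (log2), and the 33 shorter ones by -0.48. Over all genes these medians were -1.58 and -0.94. The median length was 2.44 kb for cytosolic and 2.36 kb for mitochondrial synthetases, 1.87 kb for initiation and 2.59 kb for elongation factor genes. The longer genes of the classes had median log2 fold changes of 1.37, 1.65 and 1.21 on day 2, day 6 and day 10 against day 0, and the shorter ones 0.85, 1.13 and 0.91. Over all genes these were 0.57, 1.05 and 0.50 for longer and 0.46, 0.74 and 0.53 for shorter genes. Between day 10 and day 6 the longer genes had a median log2 fold change of -0.53 and the shorter ones -0.13. The part of length in the results was not tested.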

How the data were processed

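RNA had been isolated with Trizol and made into TruSeq libraries, per the labels. The deposited table holds FPKM values computed by the authors, 1 per gene and library. Bowtie 0.12.2 and a mouse build, mm8, are listed without a role, per the submitters' processing notes, although the gene identifiers are Ensembl's for pig. How reads were counted, with which annotation, and what was done with reads matching several genes is not given in the sources used here. Symbols came from a table of gene names, for 9686 of 16319 genes. Genome coordinates and sequences are not used here. Values of 1 cytosolic and 1 mitochondrial synthetase gene count in the classes but are not reported here.

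The members and lists were chosen with earlier results of these data known. The symbol rule was applied as written and, for cytosolic synthetases, also without the final 1 of the listed symbol. As listed, 2, 4 and 7 of 51 genes passed on day 2, day 6 and day 10 and 1 between day 10 and day 6, and 9, 13, 16 and 1 of 67 with the synthetases counted in. Named were a panel (EEF1A1, EEF1A2, EIF2S1, EIF2AK4 and EIF5A had no symbol match and are not analysed here), up to 6 called genes per class, direction and comparison with the smallest p, the least changed gene of each class on day 6, and up to 3 genes per pathway list. MARS1, RARS1, TARS1, EIF1 and genes given with levels alone were named after their values were seen.

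The test took the 12625 genes whose mean over the libraries was 1 FPKM or more. Values were taken as log2(FPKM + 1), so fold changes of low genes are understated. A model with the 4 groups was fitted with limma 3.58.1 (eBayes with trend, 5.89 prior and 7 residual df) under R 4.3.3, with two-sided p-values adjusted by Benjamini-Hochberg over all genes and a threshold of 0.05. FPKM values were whole multiples of a step, and all values above 0 of 16073 genes gave whole reads within a tolerance of 0.01. Of 15917 genes simulated with known reads, 97.73% came back with all reads right. Tested on simulated data with 200 of 12625 genes changed, limma found 38%, 49%, 56.5% and 53% of 8-fold changes on day 2, day 6 and day 10 against day 0 and on day 10 against day 6, with 2.56% to 7.55% of calls false, and 0% to 3% of 4-fold changes. In the data 1124, 1428, 2295 and 619 genes passed in these comparisons, more than the 200 changed here, and this eases the adjusted threshold. The shares found in the simulation therefore do not carry over to the data, where changes of less than 4-fold also passed. A missed threshold is not read as no change.

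Libraries of day 6 and day 10 with the same replicate number deviated together (correlations 0.275, 0.250 and 0.180), so a replicate block was also fitted. For the other comparisons the correlations ranged from -0.552 to 0.469, and the numbers were not taken as pairs. Alternatives were other pseudocounts, filters and scalings, only the compared groups, the block, leaving out each library and leaving out both libraries with the most genes at 0. Where 1 of the 2 day 2 libraries was left out, the lone library was assumed to vary like the other groups. Limma voom on the recovered reads was added after seeing the data and called 527 genes higher and 262 lower on day 2, 664 and 114 on day 6, 1109 and 699 on day 10, and 174 and 308 between day 10 and day 6.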

Additional observations from a re-analysis of the deposited data

How the results depend on the processing

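Directions of called members held, while counts of calls moved. Over 39 calls on single members, 461 of 654 alternative results kept the call, 193 missed the threshold and 0 changed direction. Of the genes given without a call, EEF2 on day 10 turned to -0.14 with median ratio scaling. Synthetase minus factor shifts changed between alternatives by less than the SD of the day 0 libraries, 0.58. That SD is a wide measure, since day 0 replicate 2 was at -1.57 beside -0.57 and -0.57 in the other day 0 libraries. When a library was left out, shifts ranged from 0.45 to 0.95 on day 2, 0.39 to 0.89 on day 6 and 0.55 to 1.07 on day 10. The lowest shift on each day was the one without day 0 replicate 2. Synthetases called numbered 7, 9, 9 and 0 on day 2, day 6 and day 10 against day 0 and on day 10 against day 6, and factors 2, 4, 7 and 1. With median ratio scaling synthetases numbered 4 on day 2 and 1 on day 6, and factors 0 on day 6, 3 on day 10 and 0 between day 10 and day 6. With only the compared groups synthetases numbered 0 on day 2 and 4 on day 10, and factors 0, 1, 3 and 3. Quantile normalization gave 5 factors on day 2 and 2 between day 10 and day 6, and a mean FPKM of at least 5 gave 5 factors on day 2. A pseudocount of 0.1, no filter and limma voom each gave 2 factors on day 6, and limma voom gave 1 on day 2 and 2 between day 10 and day 6. Without both libraries with the most genes at 0, factors numbered 4, 7 and 3 on day 2, on day 6 and between day 10 and day 6, and synthetases 1 in the latter. With median ratio scaling added, synthetases numbered 1 on day 2, and factors 2 on day 6 and 5 between day 10 and day 6. Calls over all genes moved in these settings as well. Between day 10 and day 6 they went from 241 higher and 378 lower to 622 and 1281 with only the compared groups. They were 625 and 505 with quantile normalization and 174 and 308 with limma voom. Without both libraries they were 787 and 1737, and 1151 and 955 with median ratio scaling added. The counts of factors in that comparison are to be read beside these. Leaving out 1 library gave 0 to 7, 1 to 9, 4 to 9 and 0 to 0 synthetases and 1 to 6, 1 to 6, 2 to 10 and 0 to 1 factors in the 4 comparisons. The cause was not tested. The replicate block gave 8, 10, 9 and 0 synthetases and 3, 3, 8 and 0 factors. Its numbers pair libraries by deviation for day 6 and day 10 alone, where EEF1B2 was the call lost, and the deviations of 5 of 11 libraries correlated most with those of a same-numbered one. Some genes had few reads in single libraries, such as IARS1 with 2 and EIF2AK2 with 0 in day 0 replicate 2. That library had 12624390 reads, beside 11695060 in day 10 replicate 2, where these genes were at 16.2 and 2.07 FPKM.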

Other observations

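In mammals 7 of the cytosolic synthetases tested here (EPRS1, KARS1 and RARS1 among them) are part of the multisynthetase complex, a large assembly of synthetases and scaffold proteins, while the other 9 work outside it. This split was chosen after the values were seen. Of the 9 outside the complex, 7 rose on day 2, 7 on day 6 and 8 on day 10, and of the 7 inside it 0, 2 and 1. Of all genes 5.76%, 9.55% and 11.9% rose, and counts among 7 genes are too small to be set apart from these shares. On each day 9 of 9 genes outside the complex and 6 of 7 inside it lay above the median of all genes. On day 6 the calls inside it, MARS1 and RARS1, held in 3 and 5 of 17 alternatives. Calls outside it, such as that of HARS1, also ended in some alternatives. Median log2 fold changes were 2.69, 2.57 and 2.50 outside and 1.75, 1.96 and 1.80 inside the complex, against 0.51, 0.88 and 0.51 over all genes. Median lengths implied by the values were 2.49 kb outside and 2.30 kb inside. The difference between both sets was not tested.

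The ratio of the inhibitor EIF4EBP1 to its partner EIF4E was 3.81, 96.8 and 1.55 in the day 0 libraries, 29.9 and 5.80 on day 2, 10.4, 4.95 and 6.98 on day 6, and 10.1, 15.0 and 10.4 on day 10. The highest ratios were in the libraries with the most genes at 0, day 0 replicate 2 and day 2 replicate 1, where the long gene EIF4E was low and the short gene EIF4EBP1 was high within its day. The ratio of EEF1B2 to EEF2 was 0.344, 1.33 and 0.405 on day 0, 1.89 and 0.532 on day 2, 0.494, 0.440 and 0.410 on day 6, and 2.76, 3.75 and 0.589 on day 10, so thon day 10 replicate 3 stood near day 6 and the same pair of libraries stood high within their days.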
